A study of Arabidopsis thaliana with 12 samples.

Results

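Transcripts of the late embryogenesis abundant (LEA) protein family were followed in whole Arabidopsis thaliana germinants exposed to titania or ceria particles. The family was taken as 51 listed loci, and a locus entered the analysis where the probe annotation paired it alone with a probe set. This held for 35 of the 51, out of 13356 genes so paired, and all 22746 probe sets of the array entered the fit. No locus had more than 1 such probe set, so no choice of the brightest was needed. The other 16 loci had no probe set paired with them and were not analysed here. These were LEA14 (AT1G01470), AT1G02820, RAB28, ERD10, LEA7, ERD14, ECP63, EM6, ECP31, XERO1, EM1, SAG21, UNE15, AT5G53260, AT5G53270 and RAB18. Germinants of the Columbia (Col-0) ecotype, 12 days old, came from surface-sterilized, cold-stratified seeds, 50 to a dish on a disc wetted with 2 mL of liquid. The 4 groups of 3 arrays each were 0.1 mM KCl, titania (TiO2) at 500 mg per L with KCl as its control, sterile Millipore water, and ceria (CeO2) at 500 mg per L with water as its control. No transgene or mutation is named for any group, and all groups share the cold stratification. The labels call the KCl and TiO2 arrays biological replicates and give the water and CeO2 arrays only a replicate number, so the p-values measure the spread between these samples, which may in part be technical.

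LEA proteins are small, highly hydrophilic proteins that accumulate when the embryo of a maturing seed dries, and many of them are largely disordered in solution. They are thought to protect membranes and enzymes during the loss of water, and their messages normally disappear after germination. Some members are instead induced in leaves and roots by cold, drought or abscisic acid. For the comparison asked of this family, members known mainly from seeds were called seed-type (16 measured of 26 listed), members best known from cold acclimation were called cold-induced (4 of 6: COR15A, COR15B, COR47 and LTI30), and the rest were called other (15 of 19). By sequence class the measured members were 15 of the LEA_4 class, 6 dehydrins, 3 each of the LEA_1 and PvLEA18 classes, and 2 each of the LEA_2, LEA_3, seed maturation protein (SMP) and AtM classes.

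The values are log2 expression values from robust multi-array averaging (RMA), and every level below is on that log2 scale. The dimmest probe set of each array was at 2.303 to 2.514 log2. A group mean under 4 log2 was treated as near this floor, where differences may be compressed and their sign is not read. In all 4 groups 6 members stayed under it (AT2G18340, AT5G27980, AT2G03740, AT2G33690, AT3G53770 and AT4G39130). Arrays of a group correlated at 0.993 to 0.998 over all probe sets. Array medians were 5.69 to 5.74 log2 in the KCl and TiO2 arrays and 5.88 to 5.92 in the water and CeO2 arrays, so the sets may have been normalized separately, and levels were compared only within each of them. Markers of the seedling were present. The shoot genes LHCB4.1, LHCB4.2 and PSAE1 lay at 12.67 to 13.62 log2 in every array, and the root genes EXPA7, EXPA18 and PRX44 at 7.14 to 11.69.

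The comparison of TiO2 with KCl asked which family members differed in germinants on titania. Seed-type LEA transcripts were lower there, led by M17 (4.67-fold), AT3G15670 (3.01-fold), AtLEA4-1 (2.35-fold) and AtLEA4-2 (2.17-fold). Of the 16 seed-type members 8 fell and none rose, whereas of the 4 cold-induced members COR15B rose and none fell. Of the other 15, AT2G23120 rose and AT3G02480 fell. In all, 11 of 35 members passed an adjusted p of 0.05 (limma over all probe sets, Benjamini-Hochberg), 2 higher and 9 lower, against 10.6% of all probe sets, 4.72% higher and 5.86% lower. The median difference was −0.54 log2 for the seed-type members and 0.13 for the cold-induced ones, beside 0.02 over all probe sets. Whole germinants were measured, so fewer cells with a transcript and less of it per cell cannot be told apart.

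M17 encodes a protein of the small AtM class, first known from maturing seeds. Its level was 8.39, 8.56 and 9.30 log2 in the 3 KCl arrays and 5.67, 6.16 and 7.75 in the TiO2 arrays. Every TiO2 array lay below every KCl array, but TiO2 replicate 3 stood well above the other two of its group. The fitted difference was −2.22 ± 0.36 log2 (SE; limma adjusted p = 0.000763). It was −2.83 without TiO2 replicate 3 and −1.79 without TiO2 replicate 1. M10, the other AtM gene, was at 4.77 ± 0.15 in KCl and 4.57 ± 0.08 in TiO2 (log2, SD, n = 3), a difference of −0.20 ± 0.11 that did not pass (adjusted p = 0.320).

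AT3G15670 belongs to the LEA_4 class, whose proteins carry a short repeated motif. It was at 5.50, 5.66 and 6.46 log2 in KCl and at 4.15, 4.18 and 4.52 in TiO2. The TiO2 arrays were tightly grouped, well below the lowest KCl array. They lay little above the 4 log2 under which a group mean counted as near the floor. The difference was −1.59 ± 0.22 log2 (adjusted p = 0.000180). AT3G17520, also of the LEA_4 class, was at 6.26, 6.15 and 6.87 in KCl and at 5.44, 5.23 and 5.69 in TiO2. Its groups did not overlap either, and it fell by 0.97 ± 0.19 (adjusted p = 0.00257). AT3G53040, of the same class, was at 6.47, 6.26 and 6.97 in KCl against 5.65, 5.36 and 5.81 in TiO2, again without overlap. It fell by 0.96 ± 0.19 (adjusted p = 0.00287). The LEA_4 gene AT1G72100 was at 5.010, 5.002 and 5.754 in KCl and 4.37, 4.12 and 4.83 in TiO2. Its fall of 0.82 ± 0.21 (adjusted p = 0.0181) was lost without KCl replicate 3 (0.0605), TiO2 replicate 1 (0.0563) or TiO2 replicate 2 (0.0921), and when the fit held the KCl and TiO2 arrays alone (0.0695), adjusted p in brackets.

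The dehydrin gene LEA (AT2G21490) was the only one of 6 measured dehydrins past the threshold on titania, where 10.6% of all probe sets passed. Dehydrins are LEA proteins with lysine-rich segments that can fold on contact with membranes. LEA (AT2G21490) was at 5.68, 5.69 and 6.21 log2 in KCl and at 4.99, 4.73 and 5.04 in TiO2, with no overlap. It fell by 0.94 ± 0.16 (adjusted p = 0.000978), and its difference stayed between −1.03 and −0.76 in the alternatives run.

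The LEA_1 class, known as the AtLEA4 proteins, was measured whole. AtLEA4-1 was at 7.52, 7.38 and 8.30 log2 in KCl and at 6.25, 6.04 and 7.21 in TiO2, so that the highest TiO2 array nearly reached the lowest KCl array. It fell by 1.24 ± 0.25 (adjusted p = 0.00450). AtLEA4-2 was at 7.64, 7.69 and 8.63 in KCl and at 6.44, 6.42 and 7.77 in TiO2. Here TiO2 replicate 3 lay above both KCl replicates 1 and 2, so the groups overlapped. Its fall of 1.11 ± 0.30 (adjusted p = 0.0253) was lost without KCl replicate 3 (0.0868), TiO2 replicate 1 (0.109) or TiO2 replicate 2 (0.119), and when the fit held the KCl and TiO2 arrays alone (0.121). AtLEA4-5, the member of the class also known from water deficit in vegetative tissue and counted here as other, was at 7.70, 7.78 and 8.16 in KCl and 6.77, 6.85 and 7.88 in TiO2. Its difference of −0.71 ± 0.22 did not pass (adjusted p = 0.0511), and it did pass without TiO2 replicate 3 (−1.07, adjusted p = 0.000326), without both replicates 3 (−0.93, 0.000437), with arrays centred on their medians (−0.70, 0.0462) and without dim probe sets (−0.71, 0.0387).

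**Figure D1:**
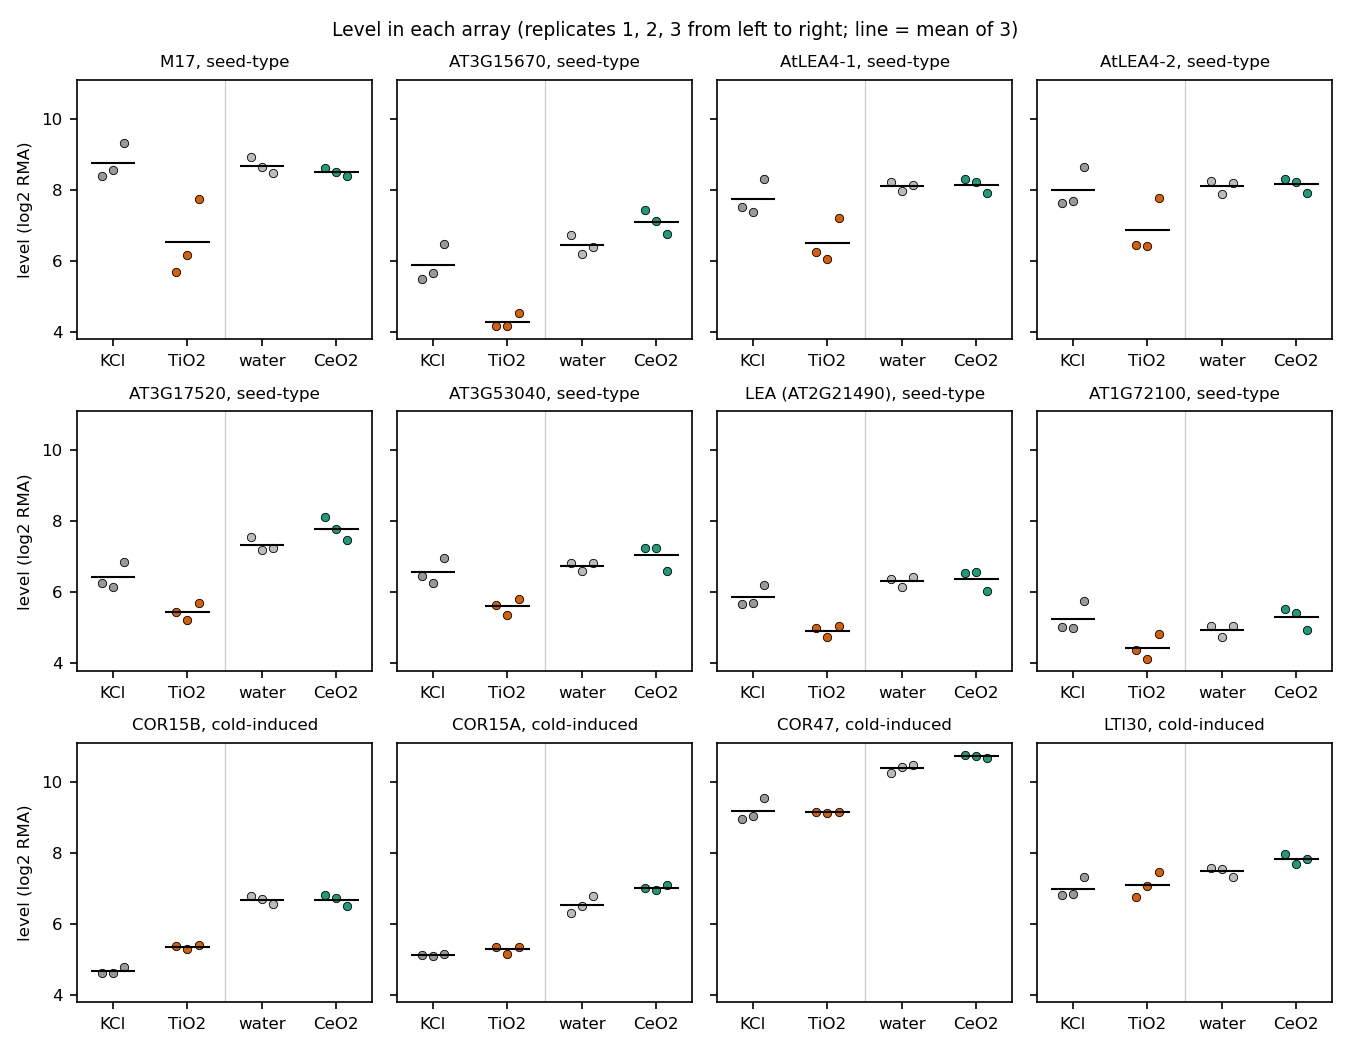
Level (log2 RMA) in each of 12 arrays for the 8 seed-type members that fell in TiO2 and the 4 measured cold-induced members, with points for replicates 1 to 3 and a line for the mean of 3. In AT3G15670 the TiO2 points (4.15 to 4.52) lie below all KCl points (5.50 to 6.46), while in COR15B they lie above (5.28 to 5.40 against 4.61 to 4.78); heights are not comparable between genes.

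The remaining 8 seed-type members had differences of −0.27 to 0.05 log2 in TiO2, none past the threshold. AT5G44310 (−0.27 ± 0.12), AT3G22490 (−0.25 ± 0.13) and AT2G42560 (−0.17 ± 0.15) were lower in every TiO2 array than in any KCl array. Of all probe sets 11.3% showed such a separation downward, and 10 of the 16 seed-type members did. In these 3 genes the gap was narrow. The lowest KCl and highest TiO2 arrays were at 4.9843 and 4.9712 log2 for AT5G44310 and at 4.1955 and 4.1593 for AT3G22490. For AT2G42560 they were at 4.0734 and 4.0652. Near the floor, in both groups under 4 log2, lay AT4G21020, AT4G36600, AT2G18340 and AT5G27980. Their differences were −0.19 ± 0.15 for AT4G21020, −0.08 ± 0.14 for AT4G36600, −0.01 ± 0.09 for AT2G18340 and 0.05 ± 0.09 for AT5G27980. Without these 4, the median of the other 12 seed-type members was −0.95 log2.

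COR15B and COR15A encode closely related proteins of the chloroplast stroma that protect membranes in freezing. COR15B was at 4.61, 4.62 and 4.78 log2 in KCl and at 5.37, 5.28 and 5.40 in TiO2. The arrays of each group lay close together and far from the other group. The rise was 0.68 ± 0.10 log2, or 1.60-fold (adjusted p = 0.000373), and stayed between 0.65 and 0.73 in the alternatives run. COR15A was at 5.13, 5.08 and 5.15 in KCl and 5.35, 5.15 and 5.35 in TiO2, a difference of 0.17 ± 0.11 that did not pass (adjusted p = 0.402). Its lowest TiO2 array (5.153) lay barely above its highest KCl array (5.15). So 2 of the 4 cold-induced members were apart upward, as were 13.1% of all probe sets. The dehydrin COR47 was at 9.17 ± 0.31 in KCl and 9.14 ± 0.02 in TiO2 (SD, n = 3; −0.03 ± 0.12, adjusted p = 0.942). LTI30, a dehydrin induced by low temperature, was at 6.99 ± 0.28 and 7.09 ± 0.36 (0.10 ± 0.16, adjusted p = 0.801).

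AT2G23120, of the PvLEA18 class, was the other rise. It was at 10.73, 10.79 and 11.23 log2 in KCl and at 11.58, 11.65 and 11.84 in TiO2, all TiO2 arrays above all KCl arrays. The rise was 0.77 ± 0.12, or 1.71-fold (adjusted p = 0.000641). AT3G02480, a LEA_4 gene, was at 7.48, 7.81 and 8.71 in KCl and at 6.23, 6.38 and 7.73 in TiO2. TiO2 replicate 3 lay above KCl replicate 1, and the fall of 1.22 ± 0.33 (adjusted p = 0.0263) was lost without KCl replicate 3 (0.0906), TiO2 replicate 1 (0.118) or TiO2 replicate 2 (0.115), and when the fit held the KCl and TiO2 arrays alone (0.119). With AtLEA4-5, the remaining members of this type ran from −0.71 to 0.20 log2, none past the threshold. Among them were the drought-induced gene DI21 (−0.23 ± 0.13), the histidine-rich, metal-binding dehydrin HIRD11 (0.20 ± 0.13), and the LEA_2 genes AT2G44060 (−0.17 ± 0.10) and AT2G46140 (−0.04 ± 0.10). The dehydrin AT4G38410 was at −0.25 ± 0.14 and the LEA_4 gene AT2G03850 at 0.14 ± 0.16, which passed only without KCl replicate 3 (0.39, adjusted p = 0.0372). DI21 passed only without TiO2 replicate 3 (−0.40, adjusted p = 0.0400). The dim genes AT4G39130, AT3G53770, AT2G33690, AT2G03740 and AT4G13230, all between 2.73 and 4.000 log2 in these arrays, ran from −0.13 to 0.02.

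**Figure D2:**
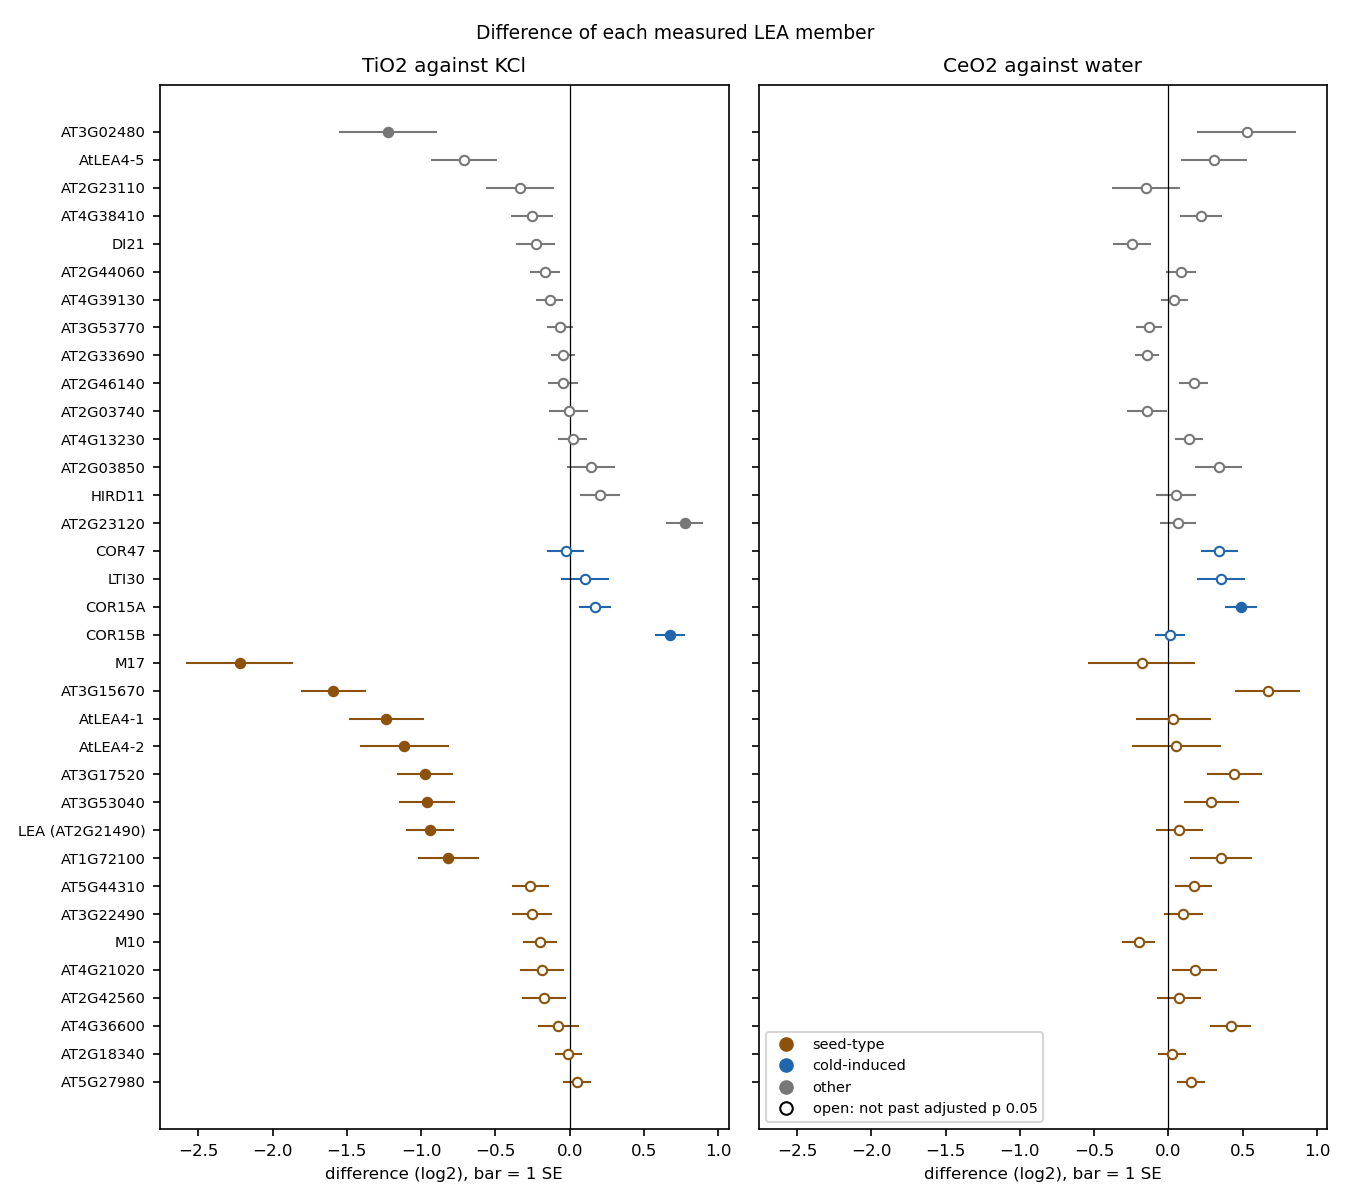
Difference (log2, bar of 1 SE) of each of the 35 measured members in TiO2 against KCl and in CeO2 against water, coloured by type, with filled points past an adjusted p of 0.05. In TiO2 the filled seed-type points run from −2.22 to −0.82, and in CeO2 COR15A (0.49) is the only filled point.

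The comparison of CeO2 with water asked the same of ceria. COR15A was higher on ceria, and no other member passed the threshold, so 1 of 35 members was called (1 higher, none lower) against 2.42% of all probe sets, 1.26% higher and 1.16% lower. COR15A was at 6.32, 6.50 and 6.77 log2 in water and at 7.02, 6.95 and 7.09 in CeO2, with no overlap. It rose by 0.49 ± 0.11, or 1.40-fold (adjusted p = 0.0198). That call was lost without water replicate 1 (difference 0.38, adjusted p = 0.132), water replicate 2 (0.47, 0.0855), CeO2 replicate 1 (0.49, 0.0705) or CeO2 replicate 3 (0.45, 0.115). COR15B was at 6.78, 6.68 and 6.54 in water and at 6.82, 6.73 and 6.49 in CeO2. Its groups overlapped fully, with a difference of 0.01 ± 0.10 (adjusted p = 0.998).

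The cold-induced dehydrins had positive differences on ceria that did not pass. COR47 was at 10.23, 10.41 and 10.47 log2 in water and at 10.75, 10.72 and 10.67 in CeO2, a difference of 0.34 ± 0.12 (adjusted p = 0.265). LTI30 was at 7.57, 7.53 and 7.32 in water and 7.98, 7.69 and 7.81 in CeO2, a difference of 0.35 ± 0.16 (adjusted p = 0.494). In both genes every CeO2 array lay above every water array, as it did in 8.26% of all probe sets. Over the family 10 members lay apart upward in this way and 2 downward, where 8.54% of all probe sets did. The median difference of the 4 cold-induced members was 0.35 log2, beside −0.01 over all probe sets.

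Of the 16 seed-type members none passed the threshold on ceria by limma, 3 had an unadjusted p under 0.05 (2229 of all 22746 probe sets did), and their median difference was 0.13 log2. The largest was AT3G15670, the second largest fall on titania, at 6.72, 6.18 and 6.40 log2 in water and 7.42, 7.13 and 6.75 in CeO2. These groups did not overlap, although CeO2 replicate 3 lay barely above water replicate 1, and the difference was 0.67 ± 0.22 (adjusted p = 0.181). AT3G17520 differed by 0.44 ± 0.19 (adjusted p = 0.399) and AT4G36600 by 0.42 ± 0.14, from 3.62 in water to 4.04 in CeO2 (adjusted p = 0.192). M17 was at 8.91, 8.64 and 8.48 in water and 8.61, 8.49 and 8.39 in CeO2, overlapping groups with a difference of −0.18 ± 0.36 (adjusted p = 0.971). AtLEA4-1 (0.03 ± 0.25), AtLEA4-2 (0.05 ± 0.30) and LEA (AT2G21490; 0.07 ± 0.16) had differences smaller than their errors. AT1G72100 (0.36 ± 0.21), AT3G53040 (0.29 ± 0.19), AT4G21020 (0.18 ± 0.15), AT5G44310 (0.17 ± 0.12), AT3G22490 (0.10 ± 0.13) and AT2G42560 (0.07 ± 0.15) were on the positive side and M10 (−0.20 ± 0.11) on the negative, none past the threshold. Near the floor, AT5G27980 was at 0.15 ± 0.09 and AT2G18340 at 0.02 ± 0.09. The 15 other members ran from −0.25 to 0.53 log2, with DI21 lowest and AT3G02480 highest (0.53 ± 0.33, adjusted p = 0.719). AT2G03850 (0.34 ± 0.16), AtLEA4-5 (0.31 ± 0.22), AT4G38410 (0.22 ± 0.14) and AT2G46140 (0.17 ± 0.10) were on the positive side, and none passed. AT2G23120, which rose on titania, was at 0.06 ± 0.12 on ceria. AT2G23110 was at −0.15 ± 0.23, AT2G44060 at 0.09 ± 0.10, HIRD11 at 0.05 ± 0.13, and the 5 dim genes ran from −0.15 to 0.14.

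The difference of the effects (CeO2 effect minus TiO2 effect) asked which members differed between the particle comparisons. It was past the threshold for 10 of 35 members, 8 more positive and 2 more negative under CeO2, against 8.06% of all probe sets, 4.64% more positive and 3.42% more negative. Of the 16 seed-type members 7 were more positive, with AT3G15670 at 2.26 ± 0.31 log2 (adjusted p = 0.000223), M17 at 2.04 ± 0.51 (0.0199), AT3G17520 at 1.42 ± 0.26 (0.00249) and AtLEA4-1 at 1.27 ± 0.36 (0.0389). AT3G53040 was at 1.25 ± 0.26 (0.00641), AT1G72100 at 1.17 ± 0.29 (0.0197) and LEA (AT2G21490) at 1.01 ± 0.22 (0.00909). AtLEA4-2 was at 1.17 ± 0.42 and did not pass (adjusted p = 0.119), though it fell on titania. It did pass without TiO2 replicate 3 (1.61, adjusted p = 0.00395). AtLEA4-5 was at 1.02 ± 0.31 (adjusted p = 0.0583) and passed once dim probe sets were left out (0.0449) or TiO2 replicate 3 was (1.38, adjusted p = 0.000487). AT4G38410 passed only without TiO2 replicate 3 (0.63, adjusted p = 0.0492). COR15B was the cold-induced member that passed, at −0.67 ± 0.14 (adjusted p = 0.00729), from a rise on titania and 0.01 on ceria. COR15A, COR47 and LTI30 had differences of 0.32 ± 0.15, 0.37 ± 0.18 and 0.25 ± 0.23 that did not pass. Of the other members, AT3G02480 was at 1.75 ± 0.47 (0.0296) and AT2G23120 at −0.71 ± 0.17 (0.0178). The particle, its control liquid and the array set differ together, and their parts in this difference cannot be told apart.

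**Figure D3:**
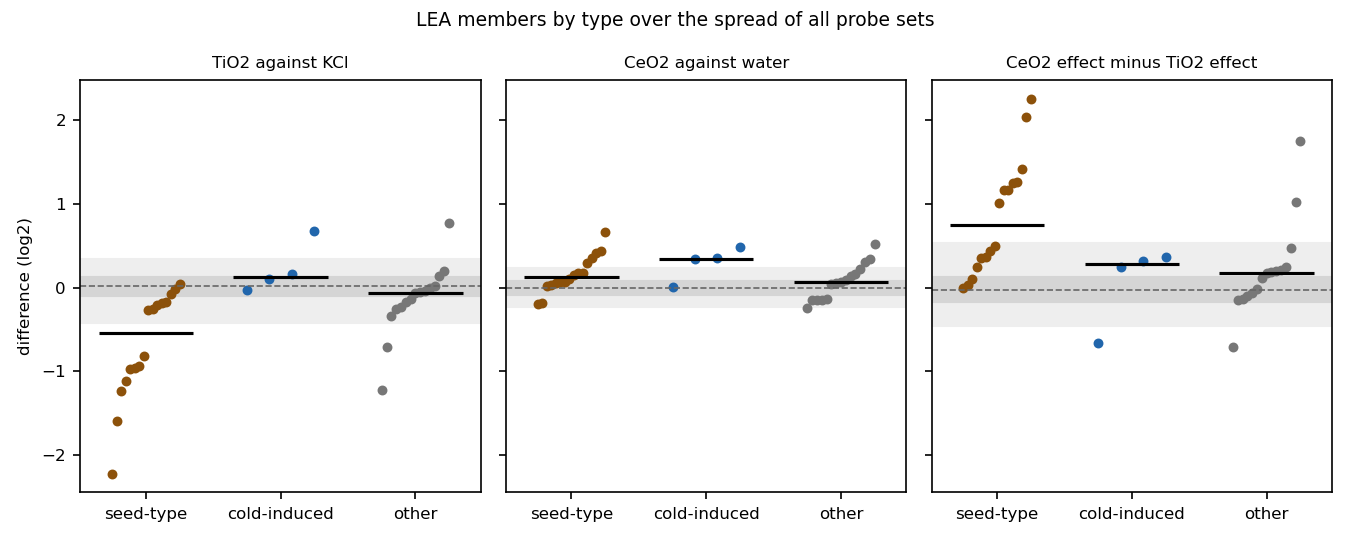
Differences (log2) of the measured members by type in each comparison, in order of value, with a black line at the type's median, over grey bands for the middle 50% and 90% of all 22746 probe sets and a dashed line at their median. The bands show the spread of single probe sets, not of medians; in TiO2 the 8 seed-type points from −2.22 to −0.82 lie below the wide band, which starts at −0.42.

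Of 3 measured pairs of members adjacent in the genome, each had 1 member past the threshold on titania and 1 that did not pass. Of all probe sets 10.6% passed there. COR15B and COR15A lie next to each other on chromosome 2 with no protein-coding gene between them. On titania COR15B rose and COR15A, also on the positive side (0.17), did not pass. On ceria COR15A rose and COR15B (0.01) did not pass. The genes of a pair were not tested against each other. AT2G42560, a seed-type LEA_4 gene with 1 gene between it and COR15A, was at −0.17 ± 0.15 on titania and 0.07 ± 0.15 on ceria. M17 and M10 are also adjacent, and M17 was at −2.22 on titania whereas M10 was at −0.20. AT2G23120 rose by 0.77 on titania, and its neighbour AT2G23110, of the same PvLEA18 class, was at −0.33 ± 0.23 (adjusted p = 0.444). All member probe sets carry the plain suffix that Affymetrix gives to probe sets not marked as shared between transcripts, but cross-hybridization between the COR15 paralogs was not tested.

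Family members also varied together between replicate arrays. In KCl, replicate 3 was the highest array for 28 of 35 members, against 35.9% of all probe sets, and for 14 of the 16 seed-type members. In TiO2, replicate 3 was the highest for 26 of 35 members, against 37.7% of all probe sets, and for 13 of the 16 seed-type members. The seed-type members of KCl replicate 3 stood above their group means by a median of 0.35 log2, and those of TiO2 replicate 3 by 0.18. On water, replicate 2 was the lowest array for 14 of the 16 (33.8% of all probe sets), and on CeO2 replicate 3 was the lowest for 14 of the 16 (34.2%). Replicate 3 was also the highest array for all 4 cold-induced members in KCl and in TiO2. In TiO2 replicates 3 and 1 were nearly level for COR15A (5.3533 and 5.3532 log2) and COR47 (9.1583 and 9.1504). With KCl and TiO2 replicates 3 both left out, 12 members passed the threshold on titania, 2 higher and 10 lower. Of all 22746 probe sets 2118 passed there, 831 higher and 1287 lower. Without KCl replicate 3 alone, 9 members passed, 3 higher and 6 lower, and 2551 of all probe sets did. Without TiO2 replicate 3 alone, 13 members passed, 2 higher and 11 lower, and 1805 of all probe sets did.

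**Figure D4:**
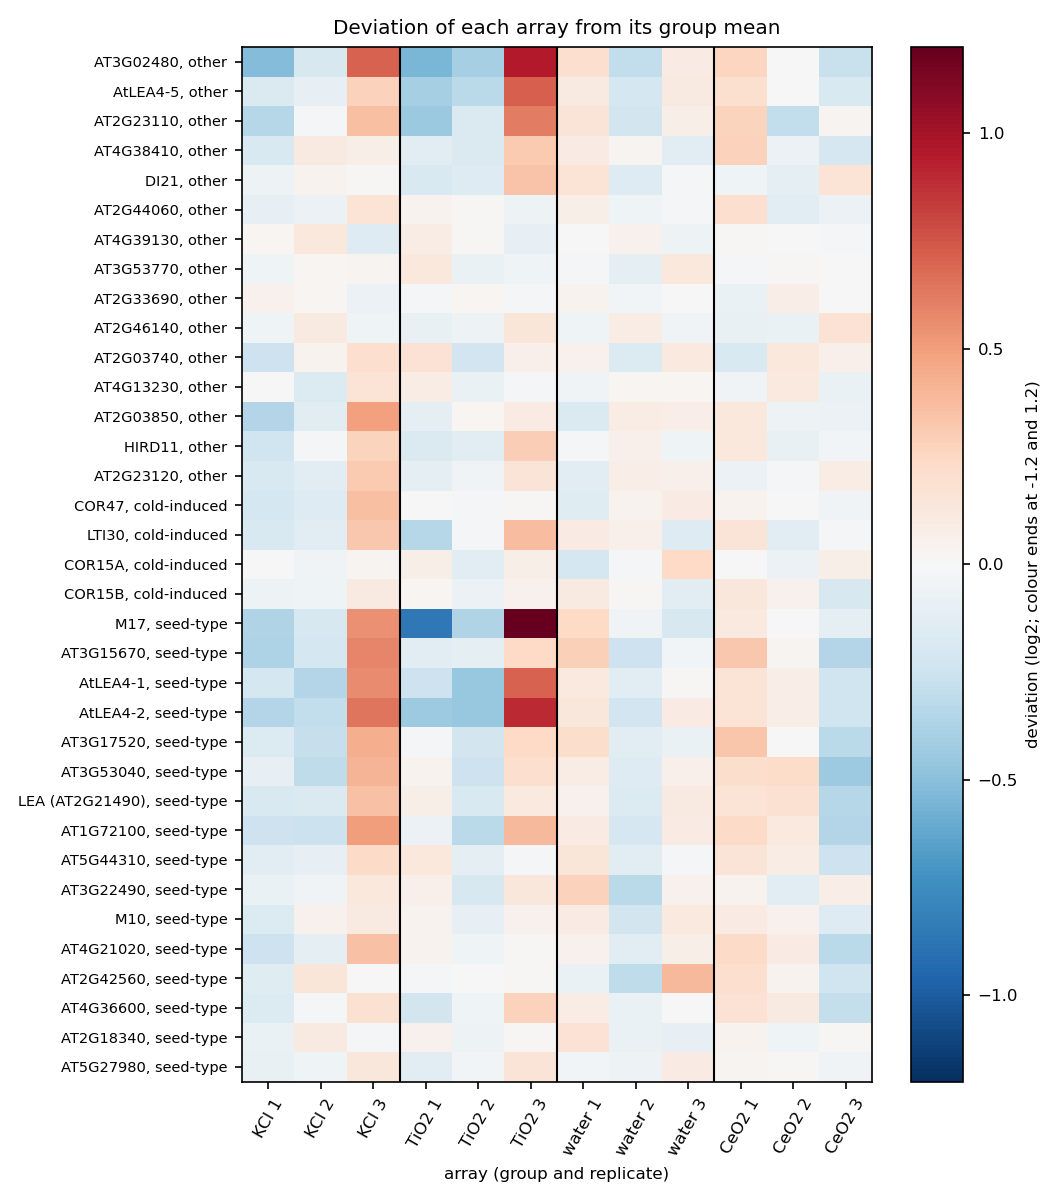
Deviation (log2) of each array from its group mean for the 35 measured members, ordered by type, with red above and blue below. The columns of KCl replicate 3 and TiO2 replicate 3 are red for most seed-type members, and those of water replicate 2 and CeO2 replicate 3 are mostly blue.

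Transcripts of other seed maturation proteins were thinly covered. Of 18 listed genes, among them those of storage proteins and oil bodies, 5 were measured. On titania 3 of these 5 fell, none rose and 2 did not pass, against 5.86% of all probe sets lower and 4.72% higher. OLEO5, an oleosin of the oil body surface, was at 6.84, 6.99 and 7.30 log2 in KCl and 5.49, 5.15 and 5.75 in TiO2 (−1.58, adjusted p = 6.72e-05). The oleosin OLEO3 fell by 0.60 (adjusted p = 0.000968) and the vicilin-like storage protein gene PAP85 by 1.38 (adjusted p = 0.00420). CRU2 and ATS3 lay near the floor at 3.16 and 3.96 in KCl, with differences of 0.03 and −0.04. The summed linear level of these 5 genes was 327 to 454 in the KCl arrays and 176 to 216 in the TiO2 arrays, without overlap. On water it was 369 to 572 and on CeO2 371 to 476, overlapping, and none of the 5 passed. The part of this shift in the LEA differences was not tested.

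Regulators were thinly covered. Of 18 listed regulators of seed maturation 2 were measured, and none passed in any comparison: EEL, a bZIP factor that acts on the EM1 promoter, was at 0.03 on titania and 0.14 on ceria, and bZIP53 at −0.26 and 0.14. Of 19 regulators of the cold response 2 were measured. The zinc finger gene ZAT10 fell on titania by 1.42 (adjusted p = 0.000611), from 8.86, 8.64 and 9.21 in KCl to 7.48, 7.51 and 7.47 in TiO2, and was at −0.37 on ceria (adjusted p = 0.703). The clock gene GI was at −0.08 on titania and at 0.47 on ceria (adjusted p = 0.0532). None of the 17 other cold-regulated genes or of the 36 genes of abscisic acid synthesis and signalling was measured by the same pairing rule. Of 12 listed shoot markers and 10 listed root markers of the seedling, 3 each were measured. On titania 2 of the 3 shoot genes were lower, against 5.86% of all probe sets. LHCB4.2 fell by 0.35 (limma adjusted p = 0.0257) and PSAE1 by 0.34 (adjusted p = 0.0486). Of the 3 root genes PRX44 fell by 0.44 (adjusted p = 0.0267), against the same 5.86%. EXPA7 (0.34) and EXPA18 (0.07) were on the positive side and did not pass. Summed linear levels of the measured shoot genes were 28040 to 33700 in KCl against 24480 to 26700 in TiO2. Those of the root genes were 2601 to 2989 against 2223 to 2468. PRX44 makes up most of these sums, at a KCl mean of 11.05 log2 against 8.15 for EXPA7 and 8.56 for EXPA18. On ceria all 3 measured root genes rose (EXPA7 by 0.96, EXPA18 by 1.44 and PRX44 by 1.26 log2), against 1.26% of all probe sets. Their sums were 1369 to 1850 on water and 3625 to 4296 on CeO2, while COR15A rose too. The other listed root markers, SHR and SCR among them, were not measured, so these sums do not stand for the whole root. The part of these marker shifts in the LEA values was not tested.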

How the data were processed

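RNA of 12 samples was measured on Affymetrix arrays. Per the submitters' processing notes the authors used RMA, which gave the deposited log2 values. Its version, the probe definitions and whether all arrays were normalized together are not given in the sources used here. Probe sets were named through the supplied probe annotation and a RefSeq gene table (13513 with 1 gene, 503 with several, 8730 with none), and all 51 loci were in the RefSeq table. The 22746 probe sets were fitted without a filter with limma 3.58.1 under R 4.3.3. The model gave each group 1 mean over the 12 arrays, with empirical Bayes moderation (8 residual and 7.63 prior degrees of freedom), two-sided tests and Benjamini-Hochberg adjustment over all probe sets at 0.05. Errors after a difference are SE of this fit, and 3 arrays a group limit the precision. The fit was tested on simulated data. The members, types and lists (7 lists of 130 genes, 15 measured) were chosen with earlier results of these data known, so lists are described and not tested. Every measured member was named, and of a list at most the 4 largest changes past the threshold, beside members given to account for the list. Alternatives were a replicate block, a second quantile normalization, median centring, leaving out the dimmest 30% of probe sets, a trended robust prior, only the compared arrays, and leaving out each array; leaving out KCl and TiO2 replicates 3 together was added after seeing the data.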

Additional observations from a re-analysis of the deposited data

Results flagged for a closer look

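For 10 members the effect of ceria against water differed from that of titania against KCl by limma's test of the difference of effects (adjusted p under 0.05 over all probe sets). The difference was more positive under CeO2 for AT3G15670 (2.26 log2), M17 (2.04), AT3G02480 (1.75), AT3G17520 (1.42), AtLEA4-1 (1.27), AT3G53040 (1.25), AT1G72100 (1.17) and the dehydrin gene LEA (AT2G21490; 1.01). It was more negative for AT2G23120 (−0.71) and COR15B (−0.67). Of the 10 calls, 5 held under every alternative run: AT3G15670, AT3G17520, AT3G53040, LEA (AT2G21490) and COR15B. The other 5 were lost without some single array. M17 was lost without TiO2 replicate 2 (adjusted p = 0.0582), water replicate 3 (0.0581) or CeO2 replicate 1 (0.0525). AT1G72100 was lost without TiO2 replicate 2 (0.0580), water replicate 2 (0.0595) or CeO2 replicate 1 (0.0616). AT2G23120 was lost without water replicate 2 (0.0515) or CeO2 replicate 1 (0.0502). AT3G02480 was lost without TiO2 replicates 1 (0.0762) or 2 (0.0822), water replicates 2 (0.0824) or 3 (0.0582), or CeO2 replicates 1 (0.0834) or 2 (0.0555). AtLEA4-1 kept its call without KCl replicate 1, KCl replicate 2, TiO2 replicate 3 or CeO2 replicate 3 and lost it without any other single array, with adjusted p up to 0.103.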

How the results depend on the processing

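No call reversed. Leaving out single arrays gave 8 to 13 members past the threshold on titania, 0 to 1 on ceria and 5 to 13 for the difference of effects (main counts 11, 1 and 10). Of all 22746 probe sets 1782 to 2551, 382 to 469 and 1434 to 2072 passed in these fits. The lowest member counts were without TiO2 replicates 1 or 2, without water replicates 1 or 2 or CeO2 replicates 1 or 3, and without CeO2 replicate 1 (5, and 6 without TiO2 replicate 2 or water replicate 2). The seed-type median minus the cold-induced median was −0.68 log2 on titania (−0.76 to −0.60 without single arrays) and −0.22 on ceria (−0.33 to −0.14). On titania it was −1.09 without dim probe sets, which removes seed-type members near the floor. A check of the replicate numbers did not settle whether they pair the arrays. Correlations of same-numbered deviations were 0.05 to 0.27 for KCl with TiO2 and 0.00 to 0.30 for water with CeO2, all positive. KCl replicate 3 and TiO2 replicate 3 correlated best with each other, as did water replicate 1 and CeO2 replicate 1. Not every array correlated best with its own number, and the main fit held no replicate block. With the replicate block 13, 5 and 13 members passed, the 5 on ceria being COR15A, AT3G15670, AT3G17520, AT3G02480 and AT4G36600, all higher. Of all 22746 probe sets 2886, 647 and 2148 passed with the block, against 2407, 550 and 1833 in the main fit. On titania the block added AtLEA4-5 (adjusted p = 0.00344) and AT2G23110 (0.0450). With only the compared arrays, 8 members and 1432 of all probe sets passed on titania, against 2407. The trended robust prior ended the titania calls of AtLEA4-2 (adjusted p = 0.121) and AT3G02480 (0.133) and the difference of effects for M17 (0.131), AtLEA4-1 (0.131) and AT3G02480 (0.155), and the second quantile normalization that for AtLEA4-1 (0.0525). Of the titania calls 8 of 11 held throughout. Members not past the threshold in either setting were counted as unchanged whatever their sign. Averaging probe sets of a gene and counting RAB18 as cold-induced were not run, since no member had more than 1 probe set and RAB18 had none.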
